A study of Tupaia belangeri with 2 samples.

Results

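Among the dissociated whole brains of 2 tree shrew (Tupaia belangeri) embryos, 344 cells were excitatory neurons that carried transcripts of EBF3, a helix-loop-helix transcription factor of the early B-cell factor family. They were selected on unique molecular identifiers (UMIs), each of which stands for 1 captured transcript. A cell had at least 500 genes detected, at least 1 UMI of SLC17A6 (vesicular glutamate transporter VGLUT2), at least 1 UMI of EBF3, no UMI of GAD1 or GAD2 (GABA synthesis), and UMIs of at most 1 of the 6 division genes MKI67, TOP2A, CENPF, PRC1, NUSAP1 and UBE2C. The rule took 147 cells of embryo 1 and 197 of embryo 2, out of 15998 cells with at least 500 genes and 18926 barcodes. This was 2.05% of the cells of embryo 1 (exact 95% binomial interval 1.73 to 2.40) and 2.23% of embryo 2 (1.94 to 2.56).

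The embryos were collected at 4 to 5 postconceptional weeks. Each gave 1 droplet library (10x Chromium 3′ kit, v3), with no treatment and no other condition, so n = 2 animals throughout. The libraries held 41868023 and 38077767 UMIs in total. The EBF3-positive glutamatergic cells held 662675 and 798876 of these, with medians of 4284 and 3835 UMIs per cell and a range from 831 to 14731. The libraries share 18 barcodes, of which 1 belongs to a selected cell, and no barcode is selected in both. Levels below are UMIs per 1000000 UMIs summed over the cells of a class in an embryo (CPM). They are not scaled by gene length, so levels were compared between classes of cells and not between genes. A total of 3 UMIs, taken as the limit that a count of 0 allows, is 4.53 CPM in the selected cells of embryo 1 and 3.76 CPM in embryo 2. Such limits and the intervals given here cover counting error only.

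EBF3 is switched on in neurons that leave the cell cycle and begin to migrate and differentiate. In the dorsal midbrain, glutamatergic neurons of the superior and inferior colliculi are known for combinations of LIM, POU and homeodomain factors such as LHX9, POU4F2, BARHL2 and SHOX2, together with TFAP2D and TFAP2B of the AP-2 family. Regional identity along the midbrain and its borders is laid down earlier by EN1, EN2, OTX2 and the IRX genes. EBF3 is also known from other young neurons, among them Cajal-Retzius cells and hindbrain neurons.

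The values that chose the cells describe how thin the selection is. EBF3 was at 441 CPM in embryo 1 and 413 CPM in embryo 2, and SLC17A6 at 385 and 368 CPM. Of the 344 cells, 186 had a single EBF3 UMI, 88 had 2 and 70 had 3 or more. A single SLC17A6 UMI was found in 215 cells, and 120 cells had exactly 1 UMI of each gene. Most cells therefore passed the selection by the smallest possible margin on at least one gene. Just outside it lay 26 cells with 1 GAD UMI and 19 cells with 2 division genes, each left out on that ground alone, whereas 95 of the selected cells had 1 division gene. The limit on genes hardly mattered, since 2 further cells had at least 200 but under 500 genes and 1 selected cell had under 600.

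For comparison, 3 other classes of the same embryos were taken, each with at least 500 genes and at most 1 division gene. The TCF7L2-positive glutamatergic cells (172 and 223 cells) had SLC17A6 and TCF7L2, a Wnt effector best known in the thalamus, without EBF3, NEUROD6 or GAD. The NEUROD6-positive cells (379 and 384 cells) had this factor of cortical excitatory neurons without EBF3, TCF7L2 or GAD. The GABAergic cells (1685 and 3140 cells) had GAD1 or GAD2 without SLC17A6 and EBF3. Median UMIs per cell in embryos 1 and 2 were 3765.5 and 3626, 4424 and 3802.5, and 2362 and 2228 in these classes. The UMIs of each class were summed by embryo, and the sums were compared with edgeR's quasi-likelihood test with the embryo as a block and Benjamini-Hochberg adjustment over all genes tested, and a gene was called at an adjusted p below 0.05. Genes that define a class were left out of its tests. Cells of an embryo are not replicates, so each p rests on 2 embryos.

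LHX9 and SHOX2, the factors that stand beside EBF3 and SLC17A6 in the label of these cells, had no part in choosing them. LHX9, a LIM homeodomain factor, was at 155 CPM (95% Poisson interval 127 to 188) in embryo 1 and 198 CPM (168 to 231) in embryo 2, or 177 ± 29.9 (SD, n = 2). SHOX2, a short-stature homeobox factor, was at 142 CPM (115 to 174) and 150 CPM (125 to 180), or 146 ± 5.91 (SD, n = 2). Both were detected in a minority of the cells, LHX9 in 38.1% and 45.2%, and SHOX2 in 33.3% and 40.1%. As a gauge of free RNA, LHX9 was found in 1.36% and 1.61%, and SHOX2 in 1.36% and 0.806%, of the cells with at least 50% haemoglobin UMIs, whose medians without haemoglobin were 983 and 1245.5 UMIs. Thinned to 2000 UMIs per cell, 22.9% and 30.1% of the 144 and 193 EBF3-positive cells that were deep enough had LHX9, against 0.989% and 0.965% of 1112 and 1865 GABAergic cells. Both factors were thus well above the level in either of these other populations in each embryo.

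Within single cells, UMIs of the 2 factors were found both together and apart. In embryo 1, 27 cells had both, 29 had LHX9 without SHOX2, 22 had SHOX2 without LHX9 and 69 had neither. In embryo 2 these were 39, 50, 40 and 68 cells. Over both embryos, 60.2% of the cells had at least 1 of the 2 factors. LHX9 was present in 55.1% of the cells with SHOX2 and 29.6% of those without it in embryo 1, and in 49.4% and 42.4% in embryo 2, so the direction was shared but the gap in embryo 2 was narrow. Median depth was close between cells with and without SHOX2, at 4291 and 4252.5 UMIs in embryo 1 and 3849 and 3834 in embryo 2. At these depths a missing UMI does not show that a gene is off.

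**Figure D1:**
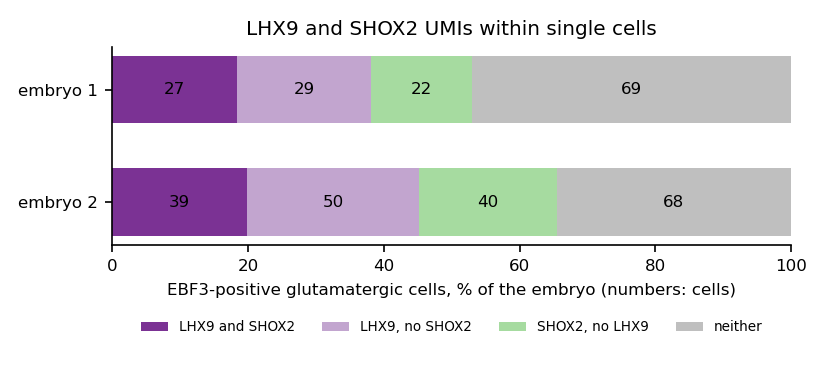
EBF3-positive glutamatergic cells of each embryo by the presence of LHX9 and SHOX2 UMIs, as a percentage of the embryo's 147 or 197 cells, with cell numbers written in the bars. The 4 combinations occur in both embryos, and the cells with neither factor are the largest part in each, 69 and 68 cells.

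Other midbrain factors were measured from a list of 27 genes, 23 of them present by name in the annotation. TFAP2D was at 293 and 362 CPM in 39.5% and 36.5% of the cells. POU4F2, a POU-domain factor of projection neurons, was at 46.8 and 98.9 CPM in 17.0% and 23.4%. BARHL2, a BarH-like homeobox factor, was at 36.2 and 33.8 CPM in 13.6% and 12.2%. In the haemoglobin-rich cells TFAP2D was found in 1.48% and 1.21%, POU4F2 in 0.742% and 0%, and BARHL2 in 0.618% and 0.806%. The regional genes EN1 (49.8 and 38.8 CPM), EN2 (33.2 and 85.1 CPM), IRX3 (119 and 190 CPM) and IRX5 (99.6 and 160 CPM) were detected too, and 220 of the 344 cells had at least 1 of these 4. OTX2 was nearly absent, with 3 and 7 UMIs, and no UMI of PAX7, NKX6-1 or NKX2-2 was counted in either embryo. TFAP2B was at 465 and 540 CPM although only 21 and 32 cells had it, so that a few cells with many UMIs carried it, and 36 of these 53 cells also had TFAP2D.

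UMIs of some other factors were found at unequal rates in cells with and without LHX9. POU4F2 was found in 32.1% of the cells with LHX9 and 7.69% of those without it in embryo 1, and in 33.7% and 14.8% in embryo 2. TCF7L2 was found in 55.4% and 33.0% in embryo 1, and in 55.1% and 23.1% in embryo 2. NEUROD6 was the reverse, with 14.3% and 31.9% in embryo 1 and 2.25% and 14.8% in embryo 2. LEF1 was found in 37.5% and 19.8% in embryo 1, and in 41.6% and 17.6% in embryo 2. FOXP2 was found in 21.4% and 5.49%, then 21.3% and 7.41%. TFAP2D (53.6% and 30.8%, then 41.6% and 32.4%) and IRX3 (37.5% and 27.5%, then 56.2% and 40.7%) were also more frequent with LHX9 in both embryos. LMO1 and CBLN1 were less frequent with LHX9 in both. Some of the remaining factors had small gaps or gaps that differed in direction. EN2 was at 12.5% and 12.1% in embryo 1 and 23.6% and 23.1% in embryo 2. ZIC1 was at 17.9% and 17.6%, then 12.4% and 14.8%. Median UMIs of cells with and without LHX9 were 4100.5 and 4318 in embryo 1 and 4065 and 3749.5 in embryo 2. The part of depth in these rates was not tested. The rates are descriptions over cells that share an embryo and a library.

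The label of midbrain-type neurons was checked by the share of cells with a UMI of the listed factors. At least 1 factor of the list, which also holds broadly used genes such as MEIS2, was found in 314 cells (91.3%), and at least 1 of LHX9, SHOX2, BARHL2, POU4F2 and TFAP2D, a set of 5 picked after the values were seen, in 256 (74.4%). Thinned to 2000 UMIs, 1 of these 5 was found in 56.2% and 66.3% of the EBF3-positive cells. The shares were 59.9% and 62.2% of the TCF7L2-positive cells and 10.1% and 12.5% of the NEUROD6-positive cells. They were 2.88% and 3.70% of the GABAergic cells and 1.14% and 1.65% of the haemoglobin-rich cells. Most UMIs of the haemoglobin-rich cells were haemoglobin, so thinning left them few others and their thinned share is no gauge of free RNA. Unthinned, it was 4.57% and 3.23%, against 67.3% and 79.7% of the EBF3-positive cells, at different depths. When thinned, the whole list was less specific, with 72.9% and 84.5% of the EBF3-positive and 40.2% and 50.5% of the GABAergic cells. The shares thus set the EBF3-positive cells apart from NEUROD6-positive and GABAergic cells but not from TCF7L2-positive ones. Genes of other regions were found in some of the cells. HOX genes, which mark the hindbrain and spinal cord, gave 65 UMIs in 7 cells of embryo 1 and none in the 197 cells of embryo 2, which allows a share of up to 1.52% of cells with a HOX UMI at the limit of 3 counts (exact 95% upper bound 1.86%). Of these 7 cells, 1 had any of the 5 factors. At least 3 UMIs of RELN, the secreted protein of Cajal-Retzius cells, were found in 8 and 2 cells, and 7 of these 10 also had TBR1 or LHX1. NEUROD6 was found in 37 cells of embryo 1 (25.2%) and 18 of embryo 2 (9.14%), and 37 of the 55 also had 1 of the 5 factors. The population is therefore called here by its rule, and fits without such cells were run as alternatives.

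**Figure D2:**
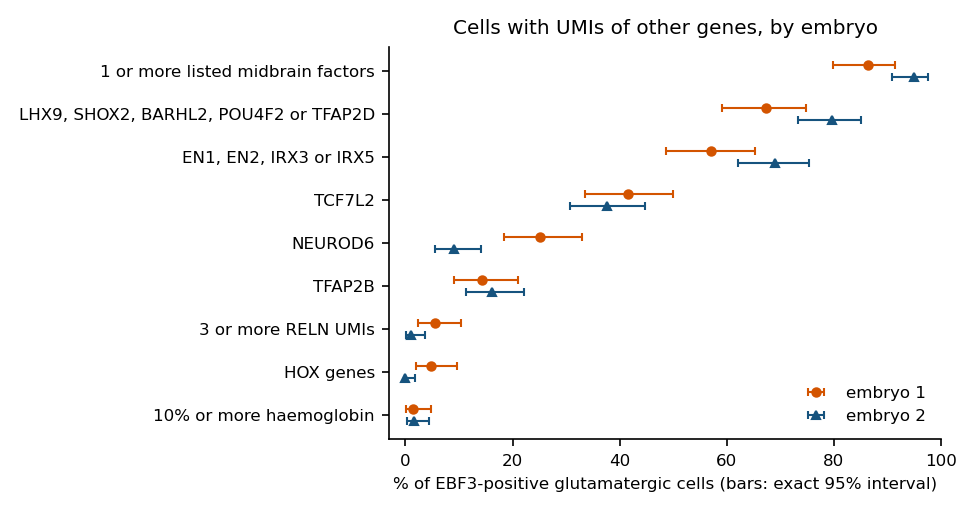
Percentage of the EBF3-positive glutamatergic cells of each embryo that carry UMIs of the genes named on the left, with exact 95% binomial intervals. Midbrain factors were found in most cells of both embryos, whereas NEUROD6 was found in 25.2% and 9.14%, and HOX genes in 4.76% of embryo 1 only.

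Genes of several further cell types were scarce. The 6 microglial markers in the annotation summed to 0 and 13.8 CPM, with CSF1R, CX3CR1 and LAPTM5 at 0. The 8 endothelial and mural markers summed to 1.51 and 3.76 CPM, with CDH5, KDR and PDGFRB at 0, and the 6 meningeal markers to 4.53 and 2.50 CPM, with COL1A1 and COL1A2 at 0. Dopamine, serotonin and acetylcholine genes summed to 18.1 and 3.76 CPM, with SLC6A3, TPH2 and CHAT at 0. Transcripts of these cell types were thus low, and several of their defining markers were at 0. Other lists were well above the counting limit. The 13 radial glial and astroglial genes summed to 703 and 685 CPM, led by the filament gene VIM with 446 UMIs, while HOPX, AQP4 and GFAP were at 0. The 11 genes of dividing cells summed to 164 and 93.9 CPM, led by TOP2A with 43 UMIs. The 4 choroid plexus genes summed to 63.4 and 104 CPM, of which TTR gave 123 UMIs, and AQP1 was at 0. TTR was found in 14.3% and 14.2% of the cells, and in 15.7% and 11.3% of the haemoglobin-rich cells. Some genes of these lists passed the tests described below, and they are given with each comparison. Their part in the other differences was not tested. Haemoglobin genes were 2.26% and 2.24% of the selected cells' UMIs, against 28.7% and 13.6% over all barcodes. The median selected cell held 0.222% and 0.0777%, and 5 cells held at least 10%. HBB, the most abundant of the 9 erythroid genes in the annotation with 32475 UMIs, was found in 100% and 93.4% of the cells, and HBZ and SLC4A1 were at 0. The part of haemoglobin RNA in the differences below was tested only as far as fits without these genes, and without these 5 cells and those with HOX genes or at least 3 RELN UMIs, go.

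The factor levels of the classes set the EBF3-positive cells apart from NEUROD6-positive and GABAergic cells, and much less from TCF7L2-positive ones. The midbrain list summed to 1106 and 1460 CPM in the EBF3-positive cells, 1075 and 1366 CPM in the TCF7L2-positive cells, 123 and 198 CPM in the NEUROD6-positive cells, and 362 and 496 CPM in the GABAergic cells. The 2 glutamatergic classes with SLC17A6 in their rule were thus close in this sum in each embryo. In the TCF7L2-positive cells the thalamic factor GBX2 was at 10.0 and 4.86 CPM, LEF1 of the thalamic and pretectal list at 65.7 and 80.3 CPM, and GNG8 of the hypothalamic and habenular list at 253 and 235 CPM, so these cells are named here by their rule alone.

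**Figure D3:**
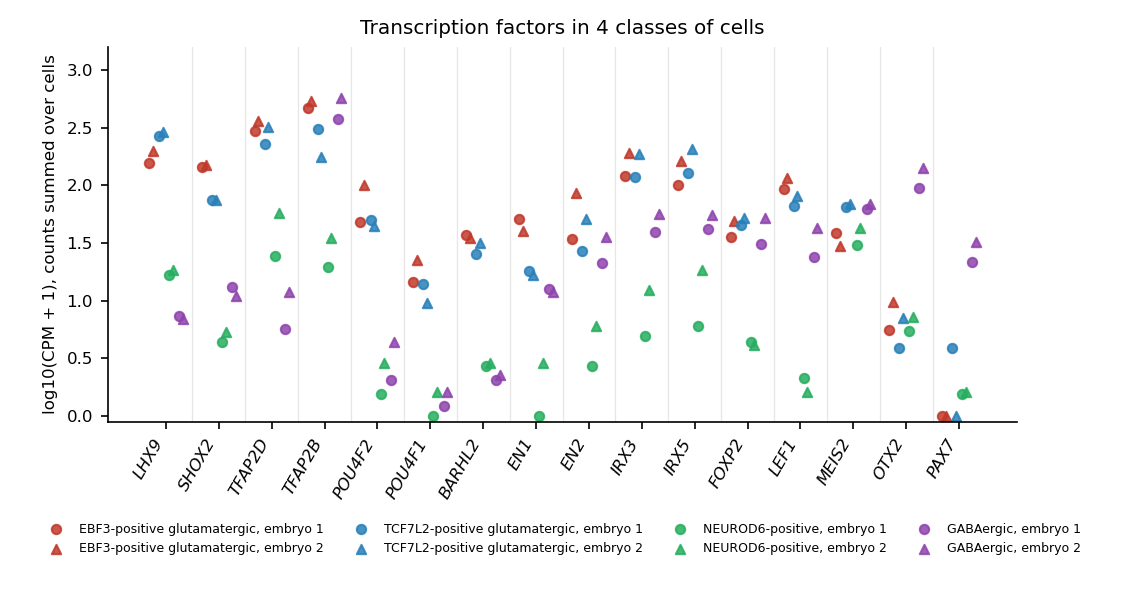
Levels of 16 transcription factors in 4 classes of cells, as log10(CPM + 1) of counts summed over the cells of each class, with a circle for embryo 1 and a triangle for embryo 2. EBF3-positive and TCF7L2-positive glutamatergic cells lie close together for most factors and, apart from MEIS2, OTX2 and PAX7, above NEUROD6-positive cells, while OTX2 and PAX7 are highest in GABAergic cells.

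Against the TCF7L2-positive glutamatergic cells, the nearest class, 98 genes were higher and 85 lower in the EBF3-positive cells of 6625 tested, a background of 1.48% and 1.28%. The EBF3-positive cells had more SHOX2 and EN1 and less LHX9, with more of the LIM-only cofactor LMO1 and the adhesion gene CNTN2, and less neurofilament and KIT ligand. The SHOX2, EN1 and LHX9 calls were each lost in some alternatives, given below. Without the embryo as a block the calls fell to 24 and 26, and with DESeq2 they were 54 and 41. No tested gene of the glial, dividing, erythroid, microglial, meningeal and choroid plexus lists passed edgeR's test here. Of 5 tested genes of the dissociation response, FOS, an immediate early gene, passed, at 180 and 225 CPM against 117 and 153 CPM (0.61 ± 0.13, adjusted p = 0.00625), and the 7 genes of that list in the annotation summed to 330 and 610 CPM against 286 and 338 CPM. The FOS call was lost in 4 alternatives, among them the fit without the block (adjusted p = 0.14), and the part of dissociation in the other differences was not tested.

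SHOX2 was at 142 and 150 CPM in the EBF3-positive cells and 74.3 and 73.0 CPM in the TCF7L2-positive cells, a log2 difference of 1.02 ± 0.17 (SE, adjusted p = 6.2e-04). LHX9 went the other way, with 155 and 198 CPM against 264 and 288 CPM, a log2 difference of -0.61 ± 0.13 (adjusted p = 0.00613). Neither gene overlapped between the classes. The SHOX2 call was lost with EBF3 at 2 or more UMIs (log2 difference 0.82, adjusted p = 0.068) and in thinned cells (0.98, 0.23). The LHX9 call was lost at a similar fold change without the block (log2 difference -0.61, adjusted p = 0.10) and with DESeq2 (-0.61, 0.11). The same held with EBF3 at 2 or more UMIs (-0.59, 0.096). It was lost at a smaller fold change in thinned cells (-0.24, 0.80) and where the compared cells could lack TCF7L2 (-0.24, 0.46). Without the cells that had NEUROD6 it was lost as well (-0.42, 0.094). Of the 16 listed midbrain factors tested, 2 rose (EN1 and SHOX2) and 2 fell (LHX9 and MEIS2, a TALE homeodomain factor), and 12 did not pass, with a median log2 difference of 0.33 against 0.00 over all genes. The MEIS2 call was lost in 7 alternatives, among them the fit without the cells that had NEUROD6 (log2 difference -0.82 against -0.98, adjusted p = 0.11). EN1 was at 49.8 and 38.8 CPM against 17.2 and 15.8 CPM (log2 difference 1.44 ± 0.35, adjusted p = 0.0206). The EN1 call was lost at similar fold changes without the block (log2 difference 1.45, adjusted p = 0.14), with DESeq2 (1.45, 0.28) and in thinned cells (1.40, 0.52). It was also lost where the compared cells could lack TCF7L2 (1.06, 0.11). TFAP2D (log2 difference 0.29 ± 0.13, adjusted p = 0.32), POU4F2 (0.71 ± 0.28, 0.21) and IRX3 (0.07 ± 0.15, 0.90) did not pass. TFAP2B did, at 465 and 540 CPM against 309 and 176 CPM (1.10 ± 0.18, adjusted p = 4.6e-04).

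Among genes named by a fixed rule of size, LMO1, a LIM-only protein that binds LIM-domain partners, differed most upward. It was at 69.4 and 76.4 CPM in the EBF3-positive cells and 7.15 and 10.9 CPM in the TCF7L2-positive cells, a log2 difference of 3.04 ± 0.35 (adjusted p = 5.0e-06). CNTN2, the axonal adhesion protein contactin 2, was at 72.4 and 92.6 CPM against 20.0 and 25.5 CPM (1.89 ± 0.27, adjusted p = 1.1e-04). CRABP1, which binds retinoic acid in the cytoplasm, was at 181 and 355 CPM against 40.0 and 128 CPM (1.69 ± 0.34, adjusted p = 0.00419). The values of all 3 genes were higher in each embryo's EBF3-positive cells, and the CRABP1 call was lost without the block (log2 difference 1.69, adjusted p = 0.21), with DESeq2 (1.81, 0.51) and without the cells that had NEUROD6 (1.56, 0.052), at similar fold changes. In embryo 2, 214 of the 284 CRABP1 UMIs came from cells with neither LHX9 nor SHOX2, at 763 CPM. The cells of embryo 2 with LHX9 alone, both or SHOX2 alone were at 137, 129 and 139 CPM, close to the TCF7L2-positive cells. In embryo 1 these 3 subsets were at 123, 111 and 219 CPM, and the cells with neither at 216 CPM. The other 12 genes on this side were KLH35, a kelch-like protein, SELENOM, RHOQ, a small GTPase, PTPRG, a receptor tyrosine phosphatase, ISLR2, BTG2, PTGDS, PACA (the name UniProt gives the precursor of the neuropeptide PACAP), RAI14, PPP1R1A, an inhibitor of protein phosphatase 1, CDKN1C, the cyclin-dependent kinase inhibitor p57, and DACH1. Their log2 differences ran from 1.35 (DACH1) to 2.08 (KLH35), and the PTGDS call was lost in 7 alternatives, among them the fit without the cells that had NEUROD6 (1.17 against 1.52, adjusted p = 0.062). CDKN1C and BTG2 act on the exit from the cell cycle, and CDKN1C was at 516 and 702 CPM against 237 and 249 CPM (adjusted p = 1.0e-08).

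On the lower side, KITLG, the ligand of the KIT receptor, was at 12.1 and 12.5 CPM in the EBF3-positive cells and 234 and 278 CPM in the TCF7L2-positive cells, a log2 difference of -4.36 ± 0.33 (adjusted p = 4.2e-09). NEFM, the medium neurofilament subunit, was at 703 and 293 CPM against 1596 and 1442 CPM (-1.65 ± 0.13, adjusted p = 4.3e-09). NFL, the light subunit, was at 208 and 104 CPM against 536 and 428 CPM (-1.65 ± 0.13, adjusted p = 9.7e-09). Both subunits were lower in each embryo, and both were lower in embryo 2 than in embryo 1. The other genes were GNG8, PDZRN4, WLS, which carries Wnt proteins to the cell surface, TLN2, the zinc finger factor ZIC2, POU2F2 and HYI, with log2 differences from -2.58 (GNG8) to -1.48 (HYI). ZIC2 fell together with ZIC1 (-1.30 ± 0.20, adjusted p = 2.5e-04) and ZIC4 (-3.12 ± 0.45, adjusted p = 9.8e-05), the 3 members of the cerebellar and rhombic lip list that fell, while CNTN2 and NEUROD1 of that list rose, NEUROD1 with a call lost in 6 alternatives, and 3 of its 8 tested genes did not pass.

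**Figure D4:**
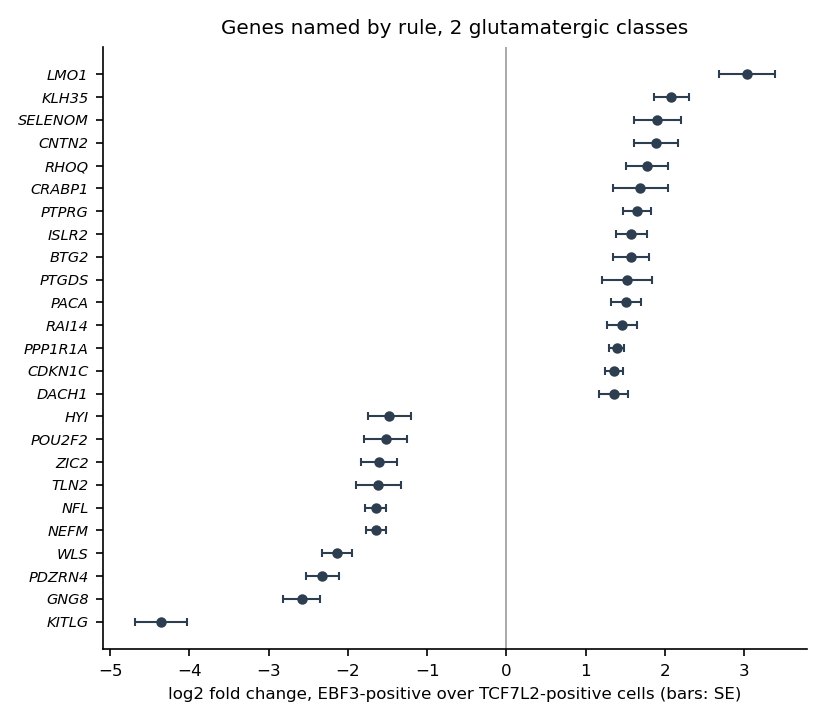
Log2 fold changes, with standard errors as bars, of the 25 genes named by rule between EBF3-positive and TCF7L2-positive glutamatergic cells, from edgeR with n = 2 embryos. LMO1 lies farthest to the right at 3.04 and KITLG farthest to the left at -4.36.

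Of the 10 neuronal maturation genes tested, none rose and 3 fell, NEFM, INA, an internexin filament (-0.56 ± 0.08, adjusted p = 5.9e-05), and the ubiquitin hydrolase UCHL1 (-0.48 ± 0.12, adjusted p = 0.0271). The neuronal birth list had 3 of 9 genes higher, BTG2, ST18, a zinc finger factor (1.89 ± 0.32, adjusted p = 7.1e-04), and NEUROD1 (2.59 ± 0.59, adjusted p = 0.0110), and 2 lower, CCND2 (-0.72 ± 0.16, adjusted p = 0.0109) and SOX4 (-0.39 ± 0.07, adjusted p = 0.00128). The NEUROD1 call was lost without the block (adjusted p = 0.10), in thinned cells (0.32), without the highest doublet scores (0.055), with EBF3 at 2 or more UMIs (0.14), without the cells that had NEUROD6 (0.11, log2 difference 2.20) and where the compared cells could lack TCF7L2 (0.39, log2 difference 0.85). Genes of both directions therefore occurred in that list. Among 19 adhesion genes, CNTN2 rose and CHL1 (-1.16 ± 0.18, adjusted p = 1.6e-04) and CNTNAP2 (-0.53 ± 0.09, adjusted p = 3.6e-04) fell. Among 22 axon guidance genes, ROBO2, a receptor for Slit proteins, fell (-0.57 ± 0.13, adjusted p = 0.0141) and 21 did not pass. The ROBO2 call was lost in 5 alternatives, among them the fits without the block (adjusted p = 0.25) and without the cells that had NEUROD6 (0.083, log2 difference -0.46). None of 6 glutamate receptor genes and none of 6 GABA and glycine receptor genes passed edgeR's test in either direction. CACNA2D1, an auxiliary calcium channel subunit, was the 1 of 16 ion channel genes that passed, at 249 and 333 CPM against 137 and 145 CPM (1.09 ± 0.17, adjusted p = 2.7e-04).

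TBR1 and FEZF2, cortical projection neuron factors, were also higher in the EBF3-positive cells than in the TCF7L2-positive cells, which were chosen to lack NEUROD6. TBR1 had 20 and 5 UMIs against 1 and 0, or 30.2 and 6.26 CPM against 1.43 and 0 CPM (adjusted p = 0.00724). FEZF2 was at 19.6 and 30.0 CPM against 8.58 and 2.43 CPM (log2 difference 2.29 ± 0.51, adjusted p = 0.00888). These FEZF2 UMIs came from 4.76% and 2.03% of the EBF3-positive cells, and all 24 of embryo 2 from cells with neither LHX9 nor SHOX2. The FEZF2 log2 difference was 1.18 in embryo 1 alone and 3.66 in embryo 2 alone. When the cells with HOX genes, at least 3 RELN UMIs or at least 10% haemoglobin were left out, the TBR1 call was lost (adjusted p = 0.068) at a fitted log2 difference of 3.58, against 4.62 with them, and it held without the cells that had NEUROD6 (3.86, adjusted p = 0.046). Both calls were also lost where the compared cells could lack TCF7L2 (adjusted p = 0.75 for TBR1 and 0.95 for FEZF2, with log2 differences of 0.50 and 0.09), without the block (0.12 and 0.19) and in thinned cells (0.56 and 0.26). The TBR1 call was lost with DESeq2 (adjusted p = 0.15) and the FEZF2 call in cells with 2000 to 8000 UMIs (0.076). RELN itself was at 171 and 56.3 CPM against 47.2 and 69.3 CPM, so the classes overlapped, and it did not pass (0.92 ± 0.32, adjusted p = 0.15).

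Against the NEUROD6-positive cells, 501 genes were higher and 611 lower in the EBF3-positive cells of 6625 tested, a background of 7.56% and 9.22%, and without the block these were 310 and 307. Most of the midbrain factors tested were higher in the EBF3-positive cells and most of the cortical genes tested lower, in a contrast that the choice of classes sets up in part. Of the 16 midbrain factors tested, 11 rose, 1 fell (BHLHE22, -1.52 ± 0.45, adjusted p = 0.0189) and 4 did not pass. Of 5 thalamic and pretectal genes tested, 3 rose, 1 fell (CALB2) and 1 did not pass. SHOX2 was at 142 and 150 CPM against 3.37 and 4.39 CPM (5.07 ± 0.26, adjusted p = 2.5e-13). LHX9 was at 155 and 198 CPM against 15.7 and 17.5 CPM (3.25 ± 0.18, adjusted p = 1.1e-12). LEF1, a Wnt effector of the same family as TCF7L2, was at 92.1 and 115 CPM in the EBF3-positive cells, with 2 and 1 UMIs in all NEUROD6-positive cells (adjusted p = 1.6e-12). The others named on this side were SAMD11, IRX3, TFAP2B, MLF1, PBX3, IRX5, RHOQ, CRABP1, NFL, ATBF1, KLH35 and TFAP2D, with log2 differences from 2.90 (TFAP2D) to 5.17 (SAMD11).

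Of 9 cortical excitatory genes tested, 7 fell, among them EOMES, FEZF2, NEUROD2, TBR1 and BCL11B, 1 rose (POU3F2, 1.01 ± 0.13, adjusted p = 1.6e-06) and 1 did not pass. FEZF2 was at 19.6 and 30.0 CPM against 331 and 249 CPM (-3.66 ± 0.19, adjusted p = 3.0e-13). ZNF238 was at 31.7 and 13.8 CPM against 695 and 514 CPM (-4.93 ± 0.15, adjusted p = 1.6e-17). TBR1 was at 30.2 and 6.26 CPM against 119 and 113 CPM (-2.91 ± 0.28, adjusted p = 2.0e-08). FEZF2, ZNF238 and TBR1 were thus low but not at 0 in the EBF3-positive cells, whereas EOMES and EMX2 were at 0. LMO7, C1QL3, VIL2, SHB, FST and CDO1 were also among the most reduced. So were the haemoglobin genes HBG1 (30.2 and 13.8 CPM against 1342 and 236 CPM) and HBE1 (28.7 and 32.5 CPM against 1333 and 435 CPM). The HBG1 call was lost in cells with at least 1000 genes, and the source of the haemoglobin difference was not tested. TTR was lower too, at 61.9 and 103 CPM against 684 and 97.1 CPM (-2.22 ± 0.49, adjusted p = 0.00180), a difference carried by embryo 1. The radial glial genes VIM (359 and 260 CPM against 188 and 209 CPM, adjusted p = 0.0313) and FABP7 (160 and 277 CPM against 138 and 157 CPM, adjusted p = 0.0396) were higher, as was the small heat shock gene HSPB1 of the dissociation list, at 30.2 and 36.3 CPM against 6.74 and 6.27 CPM (adjusted p = 1.8e-04).

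Neuronal maturation genes stood the other way than against TCF7L2-positive cells. Of 10 tested, 5 were higher in the EBF3-positive than in the NEUROD6-positive cells and none lower. STMN2, a microtubule regulator of growing axons, was at 4231 and 4079 CPM against 2573 and 2786 CPM (0.47 ± 0.06, adjusted p = 1.2e-06). NEFM was at 703 and 293 CPM against 211 and 144 CPM (1.28 ± 0.15, adjusted p = 5.4e-07). Of 16 ion channel genes, 6 rose, among them CACNA2D1 (2.04 ± 0.17, adjusted p = 2.2e-09) and the sodium channels SCN1A (1.38 ± 0.20, adjusted p = 1.1e-05) and SCN2A (1.28 ± 0.28, adjusted p = 0.00180), and 1 fell, KCNQ3. Axon guidance genes moved both ways, 7 up and 6 down of 22. SEMA3E, a secreted semaphorin, was at 21.1 and 23.8 CPM against 2.81 and 1.25 CPM (3.22 ± 0.57, adjusted p = 1.7e-04), and the ephrin receptor EPHA7 at 21.1 and 11.3 CPM against 52.8 and 46.4 CPM (-1.80 ± 0.27, adjusted p = 2.7e-05).

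Against the GABAergic cells, 395 genes were higher and 302 lower of 6627 tested, a background of 5.96% and 4.56%, and without the block these were 164 and 114. The excitatory midbrain factors were among the genes that differed most upward. TFAP2D was at 293 and 362 CPM against 4.65 and 10.9 CPM, a log2 difference of 5.36 ± 0.16 (adjusted p = 1.1e-17). LHX9 was at 155 and 198 CPM against 6.34 and 5.86 CPM (4.90 ± 0.17, adjusted p = 7.9e-17). SHOX2 was at 142 and 150 CPM against 12.2 and 9.85 CPM (3.77 ± 0.17, adjusted p = 1.1e-14). TFAP2B did not pass and its values overlapped, with 465 and 540 CPM against 375 and 567 CPM (adjusted p = 0.72). Of the 16 midbrain factors tested, 11 rose and 3 fell, PAX7, OTX2 and MEIS2, which are also used by GABAergic midbrain neurons. OTX2 was at 4.53 and 8.76 CPM against 94.2 and 140 CPM (-4.09 ± 0.26, adjusted p = 1.2e-11).

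The other genes named as higher were CACNA2D1, PACA, PTPRG, CNTN2, RHOQ, SAMD11, LMO3, CRABP1, MLF1, LIN7A, TCF7L2 and NELL2, with log2 differences from 2.18 (NELL2) to 5.00 (CACNA2D1). On the lower side, DLX5 had 0 and 1 UMIs against 208 and 251 CPM (adjusted p = 5.0e-15). LHX1, a LIM factor of the midbrain's GABAergic lineages, was at 24.1 and 13.8 CPM against 232 and 272 CPM (-3.76 ± 0.19, adjusted p = 9.2e-14). Of 5 LIM homeobox genes tested, LHX9 alone rose and the other 4, LHX8, LHX1, LHX5 and ISL1, fell. DSCAM, PAX3, WLS, OAT and TMEM123 were lower with log2 differences from -3.78 (DSCAM) to -2.33 (TMEM123). HBG1 and HBE1 were again among the most reduced, at 30.2 and 13.8 CPM against 1084 and 596 CPM, and 28.7 and 32.5 CPM against 1753 and 810 CPM, and 5 of the 6 erythroid genes tested fell. TTR was at 61.9 and 103 CPM against 352 and 291 CPM (adjusted p = 0.00694). AIF1 of the microglial list (0 and 1 UMIs against 80 and 94), COL1A2 of the meningeal list (0 UMIs against 46 and 35), the glial genes NES and SLC1A3, CCNB1 of dividing cells and the immediate early gene EGR1 were lower as well, with adjusted p from 2.4e-04 (NES) to 0.0404 (CCNB1), while FABP7 was higher (0.76 ± 0.13, adjusted p = 1.5e-04). The values of OAT, LIN7A and CCNB1 are sums over 5, 8 and 12 gene models that share the name, so none is that of a single locus. As against the NEUROD6-positive cells, maturation genes were higher, 6 of 10 with none lower, STMN2 among them (0.68 ± 0.06, adjusted p = 2.3e-09).

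A last comparison stayed within the EBF3-positive cells and asked what separates the 79 with LHX9 and no SHOX2 (29 and 50 cells) from the 62 with SHOX2 and no LHX9 (22 and 40 cells). These sums held 121646 and 197503 UMIs and 100452 and 157990 UMIs, so only 2467 genes could be tested. With the embryo as a block, 11 genes were higher in the LHX9 cells and 8 lower, a background of 0.446% and 0.324%. Without the block 5 and 2 remained, and DESeq2 called CHL1 alone. The cells with LHX9 had more of the adhesion gene CHL1, the filament gene INA and the homeobox gene ATBF1, and those with SHOX2 had more LMO1, KLH35, PPP1R1A and, in embryo 1, the filament gene NEFM.

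CHL1, an L1-family adhesion protein, was at 584 and 339 CPM in the cells with LHX9 alone and 110 and 44.3 CPM in the cells with SHOX2 alone, a log2 difference of 2.59 ± 0.31 (adjusted p = 2.5e-09). ATBF1, a large zinc finger homeobox factor, was at 411 and 562 CPM against 179 and 196 CPM (1.36 ± 0.25, adjusted p = 2.1e-04). Neither gene overlapped between the subsets. LMO1 was at 49.3 and 15.2 CPM against 139 and 152 CPM (-2.38 ± 0.52, adjusted p = 0.00415). KLH35 was at 82.2 and 81.0 CPM against 189 and 247 CPM (-1.48 ± 0.35, adjusted p = 0.0137). PPP1R1A was at 485 and 552 CPM against 866 and 1253 CPM (-1.09 ± 0.17, adjusted p = 4.9e-06). LMO1 and KLH35 were also lower in each embryo in the cells with both factors (103 and 79.8 CPM, 145 and 135 CPM) than with SHOX2 alone. PPP1R1A was not, at 1008 and 773 CPM in the cells with both factors, above the SHOX2 subset in embryo 1 and below it in embryo 2. Cells with both factors lay between the subsets in each embryo for CHL1, at 308 and 178 CPM. Cells with neither factor were at 754 and 307 CPM for CHL1, above the cells with LHX9 alone in embryo 1 and below them in embryo 2, and at 114 and 164 CPM for ATBF1, below both subsets.

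The calls of TCF7L2, HBB and NEFM rested on 1 embryo or a few cells. TCF7L2 was at 822 and 770 CPM against 687 and 184 CPM (1.02 ± 0.21, adjusted p = 0.00128), and the difference was 0.19 in embryo 1 alone and 2.04 in embryo 2 alone. HBB was at 2368 and 13630 CPM against 2210 and 722 CPM, and its log2 difference of 2.48 fell to 0.03 (adjusted p = 0.98) without the cells with HOX genes, RELN or high haemoglobin. NEFM was called lower at 280 and 304 CPM against 2041 and 234 CPM (-1.62 ± 0.26, adjusted p = 1.5e-05), but embryo 2 alone gave 0.35. FOS, PEG3, NUCB2, INA and PCSK1N were also called higher, and CADM1, DPH5, MXRA5 and RPS12 lower, with log2 differences between -1.45 (CADM1) and 1.79 (FOS), MXRA5 as the sum of 13 gene models of that name. None of the 7 midbrain factors tested passed edgeR's test, POU4F2 being at 107 and 152 CPM against 19.9 and 69.6 CPM (1.41 ± 0.47, adjusted p = 0.19, 0.0035 before adjustment).

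**Figure D5:**
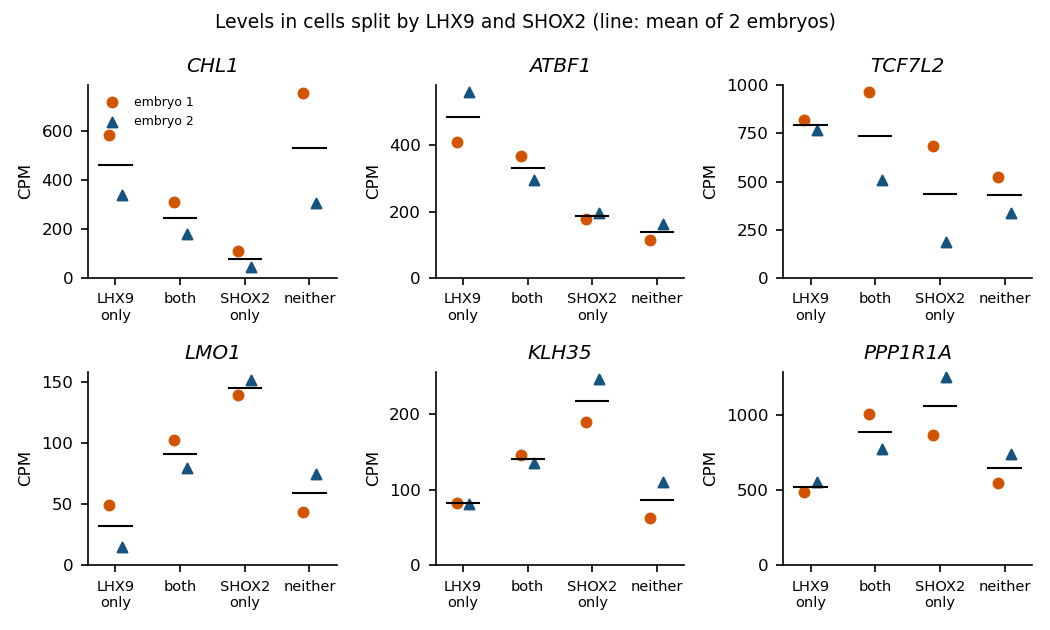
Levels (CPM) of 6 genes in EBF3-positive glutamatergic cells split by LHX9 and SHOX2 UMIs, with a point per embryo and a line at the mean of 2 embryos. CHL1 and ATBF1 are higher with LHX9 alone, LMO1, KLH35 and PPP1R1A are higher with SHOX2 alone, and TCF7L2 lies close between these subsets in embryo 1, at 822 and 687 CPM.

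Clustering of the 344 cells without the rule's genes gave 2 groups, with 229 cells (72.1% of embryo 1 and 62.4% of embryo 2) and 115 cells (27.9% and 37.6%), and median depths of 4024 and 3849 UMIs. These groups are described without a test, since their genes formed them. The first was led by CHL1 (552 CPM against 30.5 CPM in the other cells), the neurofilament NFL (221 against 14.3 CPM), CHD5, TAU, INA and PEG3, and TCF7L2 was at 756 against 153 CPM. The second was led, after HBB, by KLH35 (291 against 31.9 CPM), CDKN1C (1377 against 234 CPM), NMD3, RHOQ and ST18. LHX9 was at 214 CPM in the first and 108 CPM in the second, and SHOX2 at 122 and 195 CPM. Of the 15 leading genes of the second group, 8 were among the 15 named as higher in EBF3-positive than in TCF7L2-positive cells, in data that share these cells. Those 15 were drawn from the 98 genes called higher of 6625 tested. The compared class was chosen on TCF7L2, which was also low in the second group, so this overlap is no independent support. At a finer resolution the cells fell into 4 groups.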

How the data were processed

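The authors prepared 1 library per embryo and ran Cell Ranger 3.1.0 (per the labels, with fastp and Seurat 3 also listed) on the TS_2.0 assembly. They deposited raw UMI counts per gene model and barcode. The 9241 and 9685 barcodes equal the cells per embryo in the study's methods, while its results text states a larger total. Here the 23975 models were summed to 18543 names (1385 with several models, STMN2, NFL, FABP7, HSPB1, DACH1, LMO7, PEG3, TOP2A and UBE2C with 2 each), with no coordinates or sequences used. The cells, gene lists and tests were chosen with earlier results of these data known. UMI sums per embryo and class were fitted with edgeR 4.0.16 in R 4.3.3 (TMM, filterByExpr, quasi-likelihood, embryo as a block because the classes come from the same 2 animals, one fit of 4 classes and one of 4 LHX9 and SHOX2 subsets, 3 residual degrees of freedom each). The study's Wilcoxon tests over cells were not used.

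Named genes were LHX9, SHOX2, listed genes, and per comparison the 15 most increased and 10 most decreased called genes (10 and 10 for the subsets) with at least 50 CPM in both embryos of the higher class, the same direction in both, and a gene name. Some genes that these rules name are not reported here. Thinned cells were drawn to 2000 UMIs. Groups came from 2000 variable genes, 20 components and 20 neighbours (scanpy 1.11.5, leidenalg 0.10.2, Python 3.11.15) at a resolution of 0.5, with 1 as the alternative. Doublets were kept. Scrublet called 1 and 0 cells by its own threshold and so had not worked, and an alternative left out the 565 and 696 highest scores, 7 and 10 of them selected cells. Further alternatives were RLE size factors, no filter, no block, DESeq2 1.42.0, cells with at least 1000 genes or with 2000 to 8000 UMIs, haemoglobin genes left out, EBF3 at 2 or more UMIs, compared cells with or without TCF7L2 and each embryo alone. Leaving out cells with NEUROD6, or with HOX genes, at least 3 RELN UMIs or at least 10% haemoglobin, and leaving erythroid-rich cells out of the total, were chosen after seeing the data.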

Additional observations from a re-analysis of the deposited data

How the results depend on the processing

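The limits are 2 embryos with 1 library each, a selection that often rests on 1 UMI, and few UMIs in the LHX9 and SHOX2 subsets. The labels give no batch, and embryo and library cannot be told apart. The main counts of called genes were 183, 1112, 697 and 19 against the TCF7L2-positive, NEUROD6-positive and GABAergic cells and between the subsets. Without the replicate block they were 50, 617, 278 and 7, with DESeq2 95, 599, 282 and 1, and with cells thinned to 2000 UMIs, where fewer EBF3-positive cells meet the rule and fewer genes are tested, 35, 403, 181 and 4. EBF3 at 2 or more UMIs gave 111 and 409 against TCF7L2-positive and GABAergic cells, compared cells with or without TCF7L2 gave 109, and cells with at least 1000 genes gave 445 against GABAergic cells. The subsets gave 12 with no filter and 34 without cells with HOX genes, RELN or high haemoglobin. The other counts stayed within 1.5 times the main count. With no filter the median log2 difference against GABAergic cells was -0.165 and the split 339 higher to 432 lower, against 395 to 302. For the cause of these shifts, beyond the smaller numbers of cells or genes named, nothing was tested.

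Each embryo alone leaves no residual degrees of freedom and so gives fold changes and no count of calls. Values named in the text changed sign for TFAP2D against TCF7L2-positive cells when thinned (-0.53), for POU4F2 with each embryo alone (from -0.061 to 1.23), for RELN with each embryo alone (from -0.24 to 1.85) and without cells with HOX genes, RELN or high haemoglobin (-0.83), and for NEFM between the subsets when thinned (1.11), in cells with 2000 to 8000 UMIs (0.20) and with each embryo alone (from -2.94 to 0.35). Of the alternative values of named genes, 24 of 807 against NEUROD6-positive cells, 35 of 710 against GABAergic cells, 89 of 824 against TCF7L2-positive cells and 58 of 251 between the subsets kept their sign and lost the call. These totals include each embryo alone, which gives no adjusted p, and some genes not called in the main fit. Such values could not lose a call, so the rates among values that could are higher. With embryo 2 alone and embryo 1 alone, the log2 difference kept its sign but moved by more than its standard error for 32 and 33 of 58 named genes against NEUROD6-positive cells, 25 and 34 of 51 against GABAergic cells, 29 and 33 of 55 against TCF7L2-positive cells, and 8 and 12 of 20 between the subsets.

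The mean share of 2.14% was 1.94% among cells with at least 200 genes, 2.82% with at least 1000, 0.997% with EBF3 at 2 or more UMIs, 2.30% with GAD up to 1 UMI, 1.53% with no division gene and 1.20% when thinned, and 2.05% to 2.23% with each embryo alone. LHX9 was at 225 CPM when thinned, against 177, and 155 to 198 CPM with each embryo alone. SHOX2 was at 129 CPM with EBF3 at 2 or more UMIs, 177 when thinned, 156 without the highest doublet scores, 161 without NEUROD6 cells, 163 without cells with HOX genes, RELN or high haemoglobin and 153 as a mean over cells, against 146, with 142 to 150 CPM for each embryo alone. The 2 groups became 4 at a resolution of 1.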

Other observations

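EBF3 UMIs were also found outside the glutamatergic cells. Of the 1708 cells with at least 500 genes and an EBF3 UMI, 406 had GAD1 or GAD2 without SLC17A6, at medians of 3525 and 3414 UMIs, and 703 had neither, at medians of 3758 and 3660.5 UMIs. The median was 1 EBF3 UMI per cell in both sets. As a gauge of free RNA, EBF3 was found in 2.47% and 2.02% of the cells with at least 50% haemoglobin UMIs. Their medians without haemoglobin were 983 and 1245.5 UMIs. Thinned to 2000 UMIs, of which most were haemoglobin, 0.635% and 0.412% of those deep enough had it, a share that is no such gauge. How many of the 406 and 703 cells express EBF3 was not tested. Of the other EBF genes, EBF1 (3 and 15 UMIs) and EBF4 (5 and 3 UMIs) were rare in the EBF3-positive glutamatergic cells. EBF2 was not found under that name in the annotation and was not measured. Somatostatin (SST) was at 106 and 35.0 CPM in 6.12% and 2.54% of these cells, against 315 and 231 CPM in GABAergic cells (log2 difference -2.00 ± 0.38, edgeR adjusted p = 5.6e-04). TAC1, the substance P precursor, was at 22.6 and 25.04 CPM against 3.01 and 7.36 CPM in GABAergic cells (2.17 ± 0.37, edgeR adjusted p = 1.4e-04).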
